A study of Arabidopsis thaliana with 8 samples.

Results

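A group of 10 genes that set organ boundaries and maintain the shoot meristem of Arabidopsis thaliana was followed in embryos of 2 crosses, Q0990 x bdl and Q0990 x Col-0. They are the CUP-SHAPED COTYLEDON genes CUC1 (AT3G15170), CUC2 (AT5G53950) and CUC3 (AT1G76420), LATERAL SUPPRESSOR (LAS, AT1G55580), the class I KNOX genes STM (AT1G62360), KNAT1 (AT4G08150), KNAT2 (AT1G70510) and KNAT6 (AT1G23380), and BLADE-ON-PETIOLE BOP1 (AT3G57130) and BOP2 (AT2G41370). The 10 genes were chosen by name for what they are known to do, with earlier results of these data known. They were found by the gene code of their reporters (array probes). Among the 24648 genes with a reporter on the arrays, 9 of the 10 were present, and LAS had no reporter. A gene was kept if its reporter was brighter than nearly all blank spots in at least 4 of 16 signals, which 8 of the 9 genes and 19720 genes in all passed. Of those 8, CUC1, CUC2, CUC3, STM, KNAT2 and KNAT6 had values on both days, whereas KNAT1 and BOP2 had values on day 6 only.

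Both crosses are labelled as Col-0 ecotype, with plants of Q0990, an enhancer trap line that expresses GAL4, as mother and bdl or Col-0 plants as father. The name bdl is that of a BODENLOS protein that escapes auxin-induced breakdown, and BODENLOS holds back the auxin response factor MONOPTEROS. The labels do not give the promoter that drives bdl in this cross or the number of embryos pooled, and they count days from pollination where the series text counts them from fertilization. Embryos were isolated on day 3 or day 6, their RNA was amplified, and both crosses were hybridized together in 2 colours on 4 arrays a day, which the series text calls biological replicates.

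In the plant embryo, the shoot meristem forms between the cotyledon primordia. CUC proteins are NAC transcription factors that keep the cotyledons separate and are needed for STM to be expressed. Class I KNOX homeodomain proteins such as STM hold meristem cells in an undifferentiated state, in part by raising cytokinin and lowering gibberellin, and act in pairs with BELL homeodomain proteins. BOP proteins act at the base of lateral organs, where they restrict KNOX expression, and the microRNA miR164 cleaves the transcripts of CUC1 and CUC2.

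Median intensities were 225 to 524 per channel and array. Blank spots had a 95th percentile, the limit used for a signal above background, of 27.3 to 87.5 on day 3 and of 68.4 to 308 on day 6. Log2 ratios of array pairs correlated across genes at 0.572 to 0.778 on day 3 and 0.732 to 0.870 on day 6. The labels put Q0990 x bdl in Cy5 on replicates 1 and 2 and in Cy3 on replicates 3 and 4, but the arrays deviated from their day's mean in other pairs. On day 3 the deviations of replicates 1 and 3 correlated at 0.143 across genes, and those of replicates 1 and 2 at -0.518. With dyes assigned by these deviations, the boundary and meristem genes called were again 6 on day 3 and 7 on day 6. Calls over all genes rose from 8032 to 9847 of 19087 on day 3 and from 6939 to 9138 of 19467 on day 6. Each day has both orientations equally either way, so the mean log2 ratio of genes with all 4 arrays stays the same.

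Embryo markers also moved between the crosses. Over all genes, 21.1% were called higher and 21.0% lower in Q0990 x bdl on day 3, and 16.2% and 19.4% on day 6. Of 6 measured embryo markers, 0 rose and 4 fell on day 3 in Q0990 x bdl, among them the epidermal gene PDF1 (log2 -0.84) and DRN (log2 -0.69), and 3 rose and 0 fell on day 6. ATML1 (log2 0.057) and L1L (log2 0.00075) were not called on day 3. WOX2 was not above the blank spots. Endosperm and seed coat markers were detected too, in RNA labelled as from isolated embryos. The embryo markers' summed intensity in Q0990 x bdl was 43612 to 64192 on day 3 against 72521 to 92307 in Q0990 x Col-0, or 0.597 to 0.706 of it on the same array, and 36156 to 84211 against 30306 to 64330 on day 6, or 1.16 to 1.31 of it. Endosperm markers rose for 8 of 9 genes on day 3, with an intensity summed over 8 reporters 1.70 to 1.85 times as high, and for 2 of 8 on day 6 (1.01 to 1.16 times). On day 6 no endosperm marker exceeded the blank spots in all its signals, and AGL36 and FIS2 did so in 0. The day 6 endosperm ratios therefore rest in part on signals near background. Seed coat markers rose for 8 of 13 genes on day 3 (1.32 to 1.77 times), and 3 rose and 2 fell on day 6 (1.16 to 1.30 times). PDF1 was the brightest embryo marker and weighs most in the embryo sum. Its normalized log2 level in Q0990 x Col-0 on day 3 was 15.63, and that of LEC1, the next, was 13.82. The part of these marker shifts in the results below was not tested. In these bulk samples, fewer cells of a type and less RNA per cell cannot be told apart.

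On day 3, the 6 genes with values were lower in Q0990 x bdl, on all 4 arrays each. Each ratio sets the Q0990 x bdl signal over that of Q0990 x Col-0 on the same array, and a gene was called at a Benjamini-Hochberg adjusted p under 0.05 over all genes in limma. All 6 were called lower, against 21.0% of 19087 genes called lower, 21.1% called higher and 42.1% in either direction. Their median log2 ratio was -0.79, where the median of all genes was 0.0025. CUC3 and CUC1 had the 38th and 39th lowest log2 ratios of all genes, KNAT2 the 118th and CUC2 the 298th, while STM and KNAT6 ranked 1598th and 1856th. Falls of at least 2-fold were called for 62 genes (0.325%).

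On day 6, the 6 genes measured on both days no longer moved one way, and KNAT1 and BOP2 also had values. Of 8 genes measured, 3 were called higher (CUC1, CUC3 and STM), 4 lower (KNAT1, KNAT2, KNAT6 and BOP2) and 1, CUC2, was not called. Over 19467 genes, 16.2% were called higher and 19.4% lower (35.6% in all). KNAT1 and KNAT2 had the 27th and 31st lowest log2 ratios of all genes on that day, and CUC1 had the 125th highest.

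**Figure D1:**
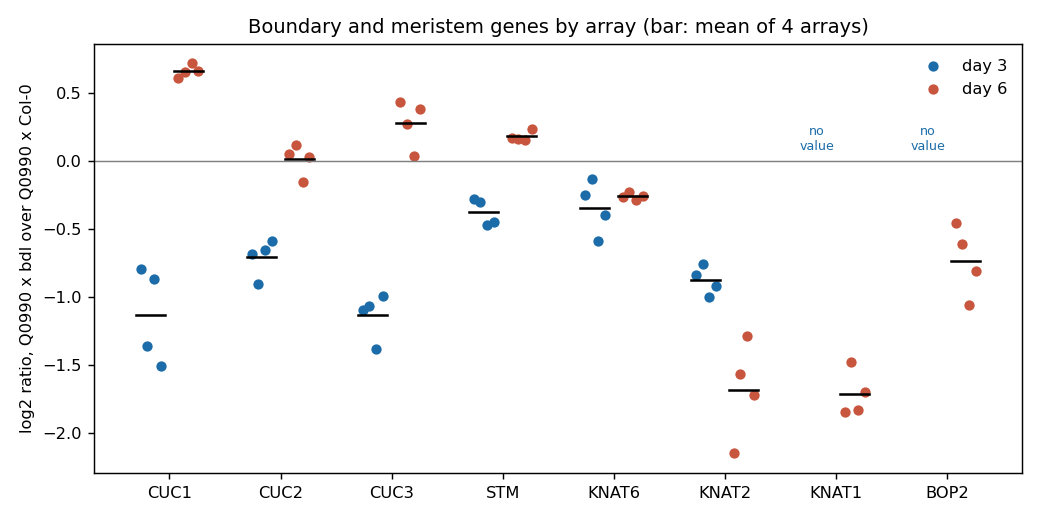
Log2 ratio (Q0990 x bdl to Q0990 x Col-0) of each gene on each of the 4 day 3 and 4 day 6 arrays (points), with the mean of each day. CUC1, CUC3 and STM lay below 0 on every day 3 array and above 0 on every day 6 array, whereas KNAT2 lay below 0 on all 8.

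The effect of the cross differed between days for 5 of the 6 genes measured on both. The difference, day 6 minus day 3, was called for 41.4% of 18834 genes. CUC1, CUC2, CUC3 and STM had a higher log2 ratio on day 6 and KNAT2 a lower one, against 19.5% of all genes called higher and 21.8% called lower. For KNAT6 the difference was 0.084 (95% interval -0.11 to 0.28, adjusted p = 0.460).

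CUC1 acts redundantly with CUC2 to separate the cotyledons. On day 3 its deposited intensities were 948, 1495, 1620 and 1582.5 in Q0990 x bdl and 1683, 3895, 2991 and 4561 in Q0990 x Col-0, replicates 1 to 4 in order. Every Q0990 x bdl value lay below every Q0990 x Col-0 value. CUC1 was 2.19-fold lower (log2 -1.13 ± 0.353 SD, n = 4, adjusted p = 0.000166). The fall was smaller on replicates 1 and 3 (log2 -0.80 and -0.87) than on replicates 2 and 4 (log2 -1.36 and -1.51), the same pairs in which the arrays deviated over all genes.

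On day 6 CUC1 intensities were 4517, 1589, 1867 and 2854 in Q0990 x bdl and 2871, 978, 1097.5 and 1767 in Q0990 x Col-0. The ranges overlapped across arrays, but Q0990 x bdl was the brighter on each array. The rise was 1.58-fold, with a mean log2 ratio of 0.66 ± 0.0436 (SD, n = 4, adjusted p = 0.00310). From day 3 to day 6 its log2 ratio moved by 1.80 (95% interval 1.42 to 2.17, adjusted p = 0.000124).

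CUC2, the partner of CUC1 in cotyledon separation, fell on day 3 and was near background on day 6. On day 3 its intensities were 155, 62.6, 184 and 202 in Q0990 x bdl and 278, 161, 317 and 331 in Q0990 x Col-0, all above the blank spots. The ranges overlapped, and Q0990 x bdl was lower on each array, by 1.63-fold on average (log2 -0.71 ± 0.138 SD, n = 4, adjusted p = 0.000128). On day 6 the intensities were 140, 28.9, 81.5 and 60.8 against 132, 23.7, 95.9 and 58.7. Only 2 of 4 Q0990 x bdl signals and 1 of 4 Q0990 x Col-0 signals exceeded the blank spots there, and the log2 ratio of 0.012 ± 0.117 (SD, n = 4, adjusted p = 0.908) was not called. The log2 ratio differed between days by 0.72 (95% interval 0.50 to 0.94, adjusted p = 0.000723), a size that rests on day 6 signals near background.

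CUC3, a CUC gene that miR164 does not target, also fell on day 3. Its intensities were 58.3, 110, 123 and 149 in Q0990 x bdl and 182, 287, 400 and 348 in Q0990 x Col-0. The groups did not overlap, 1 of the 4 Q0990 x bdl signals was not above the blank spots, and the fall was 2.19-fold (log2 -1.13 ± 0.172 SD, n = 4, adjusted p = 3.58e-05). The sizes of the CUC2 and CUC3 falls depended on the offset of 50 added to each intensity: from no offset to an offset of 200, log2 ratios ran from -0.93 to -0.43 for CUC2 and from -1.48 to -0.69 for CUC3, called each time. CUC1, a brighter gene, ran from -1.16 to -1.06, so the order of CUC1 and CUC3 depends on the offset. The CUC2 difference between days was 0.43 with an offset of 200, also called.

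On day 6 CUC3 intensities were 136, 113, 68.7 and 159 in Q0990 x bdl and 86.6, 85.1, 65.0 and 110 in Q0990 x Col-0. These groups overlapped, and 2 and 1 of the 4 signals exceeded the blank spots. The rise of 1.22-fold (log2 0.28 ± 0.176 SD, n = 4, adjusted p = 0.0240) was lost with an offset of 200 (log2 0.15, adjusted p = 0.0553) and without day 6 replicate 1 (log2 0.25, adjusted p = 0.108), replicate 2 (log2 0.31, adjusted p = 0.0532) or replicate 4 (log2 0.22, adjusted p = 0.119). The difference between days of 1.42 (95% interval 1.16 to 1.67, adjusted p = 6.77e-05) was called in each of these, at 0.84 with the offset of 200, and its size also rests on day 6 signals near background.

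The miR164 genes themselves could not be followed. The 2 reporters present, for miR164a and miR164c, exceeded the blank spots in 0 signals.

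STM is the KNOX gene that keeps the embryonic shoot meristem. On day 3 its intensities were 186, 448, 320 and 460 in Q0990 x bdl and 235, 570, 463 and 651 in Q0990 x Col-0. The ranges overlapped, and Q0990 x bdl was lower on each array, by 1.30-fold (log2 -0.38 ± 0.0994 SD, n = 4, adjusted p = 0.000519). On day 6 they were 919, 405, 344 and 626 against 796, 353, 303 and 520, again overlapping, with Q0990 x bdl higher on each array. The 1.13-fold rise (log2 0.18 ± 0.0353 SD, n = 4, adjusted p = 0.0201) was lost without day 6 replicate 3 (log2 0.18, adjusted p = 0.0794) or replicate 4 (log2 0.15, adjusted p = 0.105). The difference between days was 0.56 (95% interval 0.40 to 0.71, adjusted p = 0.000472).

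KNAT1, also named BREVIPEDICELLUS and known for its part in internode growth, fell on day 6 by about as much as KNAT2. With no offset the order of these genes turned (log2 -1.83 for KNAT1 and -1.95 for KNAT2). Its intensities were 1463, 170, 560 and 392 in Q0990 x bdl and 5300, 559, 2093 and 1373 in Q0990 x Col-0. The ranges overlapped between arrays, and on each array Q0990 x bdl was the lower. KNAT1 was 3.29-fold lower (log2 -1.72 ± 0.170 SD, n = 4, adjusted p = 0.000123). Day 3 held no value for its spot.

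KNAT2, a class I KNOX gene closely related to KNAT6, fell on both days. On day 3 its intensities were 252, 130, 392 and 405 in Q0990 x bdl and 487, 256, 834 and 816 in Q0990 x Col-0, overlapping but lower on each array, by 1.84-fold (log2 -0.88 ± 0.106 SD, n = 4, adjusted p = 0.000679). Day 6 intensities were 563, 104, 106 and 205 against 2631, 404, 329 and 788. The fall was then 3.21-fold (log2 -1.68 ± 0.363 SD, n = 4, adjusted p = 4.54e-05), from log2 -1.29 on replicate 3 to log2 -2.15 on replicate 1. Its size depends on the offset, from log2 -1.95 with no offset to -1.25 with an offset of 200, called each time. Of the 4 Q0990 x bdl signals on day 6, 3 exceeded the blank spots. The difference of -0.80 between days (95% interval -1.19 to -0.42, adjusted p = 0.00608) was not called with an offset of 200 (log2 -0.60, adjusted p = 0.0537).

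KNAT6, which acts with STM in the meristem and at its boundaries, had 3 reporters that did not give the same result. Averaged, they gave a 1.27-fold fall on day 3 (log2 -0.34 ± 0.196 SD, n = 4, adjusted p = 0.00241). The averaged fall on day 6 was 1.20-fold (log2 -0.26 ± 0.0232 SD, n = 4, adjusted p = 0.0114). The brightest reporter, assigned to gene model 2 and at 367 to 555 in Q0990 x bdl, was not called on day 3 (log2 -0.071, adjusted p = 0.378) or day 6 (log2 -0.038, adjusted p = 0.654). The reporter of gene model 1 was called lower on both days (log2 -0.53, adjusted p = 0.000254, and log2 -0.38, adjusted p = 0.00180). A dim reporter, also of model 2, gave log2 -0.43 on day 3 (adjusted p = 0.0445) and -0.36 on day 6 (adjusted p = 0.0883). It exceeded the blank spots in 3 of 4 signals of each cross on day 3 and in 1 of 4 on day 6, and it enters the average on both days. The bright and the dim reporter carry the same model, so the split did not follow the gene models. With an offset of 200 the averages were log2 -0.20 on day 3 and -0.15 on day 6, both called. The day 6 call on the average was lost without day 6 replicate 1 (log2 -0.22, adjusted p = 0.0603) or replicate 2 (log2 -0.24, adjusted p = 0.0543).

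**Figure D2:**
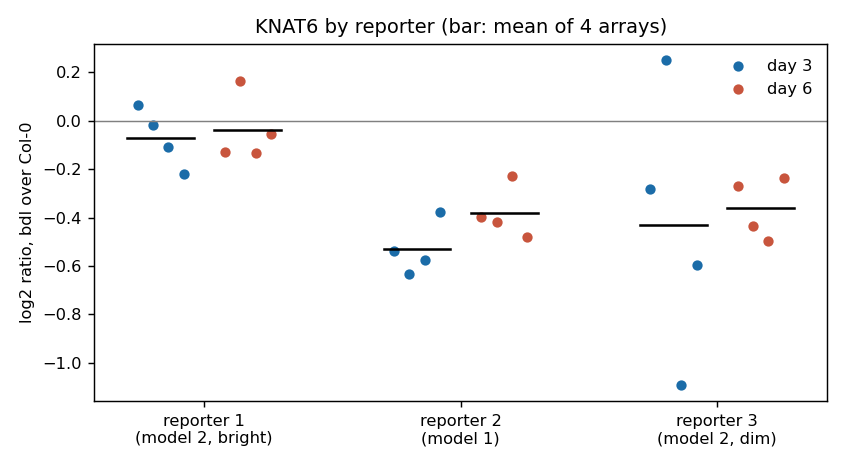
Log2 ratio (Q0990 x bdl to Q0990 x Col-0) of the 3 KNAT6 reporters on each array, by day. The brightest reporter scattered around 0 on both days, and the reporter of gene model 1 lay below 0 on all 8 arrays.

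BOP2 encodes a protein that works at the base of lateral organs. On day 6 its intensities were 448, 744, 542 and 375 in Q0990 x bdl and 626, 1147, 1170 and 688 in Q0990 x Col-0. The ranges overlapped, and BOP2 was 1.66-fold lower (log2 -0.73 ± 0.261 SD, n = 4, adjusted p = 0.00124), on each array. Its spot held no day 3 value. BOP1, the close relative of BOP2, was not above the blank spots in any signal, with day 6 intensities of 12.4 to 45.0 in Q0990 x bdl and 25.7 to 80.6 in Q0990 x Col-0, and no fold is given. LAS, a GRAS-family gene that acts at axils, was not measured.

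**Figure D3:**
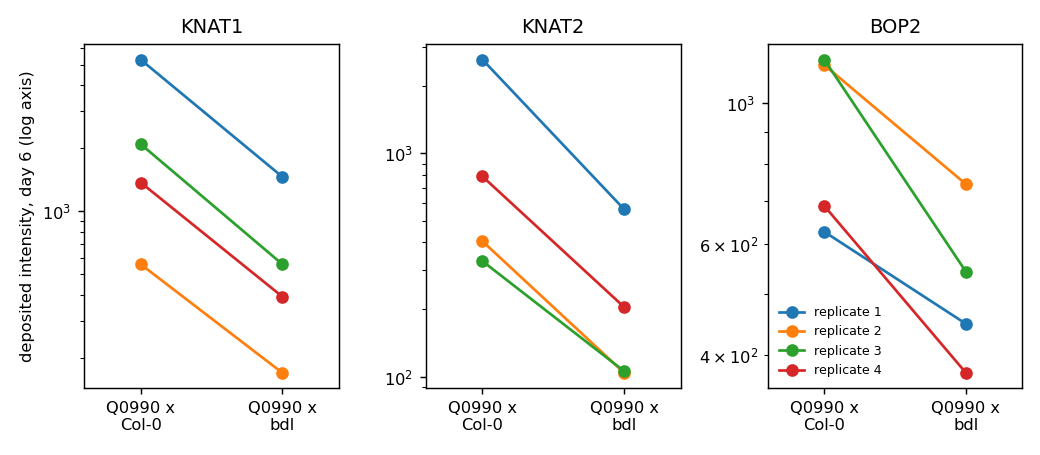
Deposited day 6 intensities (log axis) of KNAT1, KNAT2 and BOP2 in Q0990 x Col-0 and Q0990 x bdl, with a line joining the 2 signals of each of the 4 arrays. Each gene fell along every line, while the arrays differed in level.

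The same genes were next compared between days within each cross. Day 3 and day 6 RNA never shared an array, and the spread between arrays enters this comparison. In Q0990 x Col-0, CUC2 and CUC3 were called lower on day 6 than on day 3, and 1 of 4 day 6 signals of each exceeded the blank spots, so the size of the change was not measured and no fold is given. With the offset of 50 the log2 changes were -1.47 for CUC2 (adjusted p = 0.00124) and -1.37 for CUC3 (adjusted p = 0.00336), and with no offset -2.20 and -1.82. CUC1 was lower by a log2 value that was not called (-0.84, adjusted p = 0.124). STM, KNAT2 and KNAT6 gave log2 0.12, 0.38 and 0.064 and were not called. Of all genes, 12.9% were called lower and 13.7% higher (26.6% in all).

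In Q0990 x bdl, 0 of the 6 genes were called between days in limma, where 31.8% of all genes were (16.1% higher and 15.7% lower). An unadjusted p under 0.05 was found for 3 of the 6, and for at least the 31.8% of all genes that were called. The log2 changes were 0.95 for CUC1 (adjusted p = 0.0751), -0.75 for CUC2 (0.0573), 0.047 for CUC3 (0.925), 0.67 for STM (0.0658), -0.43 for KNAT2 (0.516) and 0.15 for KNAT6 (0.662). Leaving out 1 array made a call of CUC2 without day 3 replicate 2 (log2 -0.90, adjusted p = 0.0294), day 6 replicate 1 (log2 -0.86, adjusted p = 0.0408) or day 6 replicate 3 (log2 -0.85, adjusted p = 0.0401), and of STM without day 3 replicate 2 (log2 0.87, adjusted p = 0.0238).

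Normalized log2 levels gave the order of the 4 conditions for each gene. CUC1 stood at 11.53 ± 0.521 (SD, n = 4 throughout) in Q0990 x Col-0 on day 3, 11.38 ± 0.160 in Q0990 x bdl on day 6, 10.71 ± 0.170 in Q0990 x Col-0 on day 6 and 10.39 ± 0.207 in Q0990 x bdl on day 3. The first 2 levels differed by less than their spread, and the other neighbours by more. CUC3 stood highest in Q0990 x Col-0 on day 3 at 8.41 ± 0.403, and the other 3 conditions, at 7.05 to 7.33, differed by less than the largest SD among them of 0.422.

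CUC2 stood at 8.31 ± 0.166 in Q0990 x Col-0 and 7.60 ± 0.298 in Q0990 x bdl on day 3. On day 6 its levels were 6.84 ± 0.502 and 6.85 ± 0.432, and the change between days in Q0990 x bdl was not called. The 2 day 6 levels were nearly equal. STM stood at 9.23 ± 0.227 in Q0990 x bdl and 9.05 ± 0.203 in Q0990 x Col-0 on day 6, and at 8.91 ± 0.582 in Q0990 x Col-0 and 8.53 ± 0.567 in Q0990 x bdl on day 3, each within the spread of its neighbour. KNAT2 was highest in Q0990 x Col-0, at 9.59 ± 0.864 on day 6 and 9.19 ± 0.454 on day 3, and lower in Q0990 x bdl at 8.31 ± 0.363 on day 3 and 7.91 ± 0.506 on day 6. Within each cross, the KNAT2 levels of the 2 days overlapped. KNAT6 stood at 8.11 ± 0.153 and 8.19 ± 0.143 in Q0990 x Col-0 on day 3 and day 6, and at 7.77 ± 0.211 and 7.93 ± 0.159 in Q0990 x bdl, again overlapping between days. On day 6, KNAT1 stood at 10.82 ± 0.901 in Q0990 x Col-0 and 9.10 ± 0.734 in Q0990 x bdl, and BOP2 at 9.97 ± 0.910 and 9.24 ± 0.805.

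**Figure D4:**
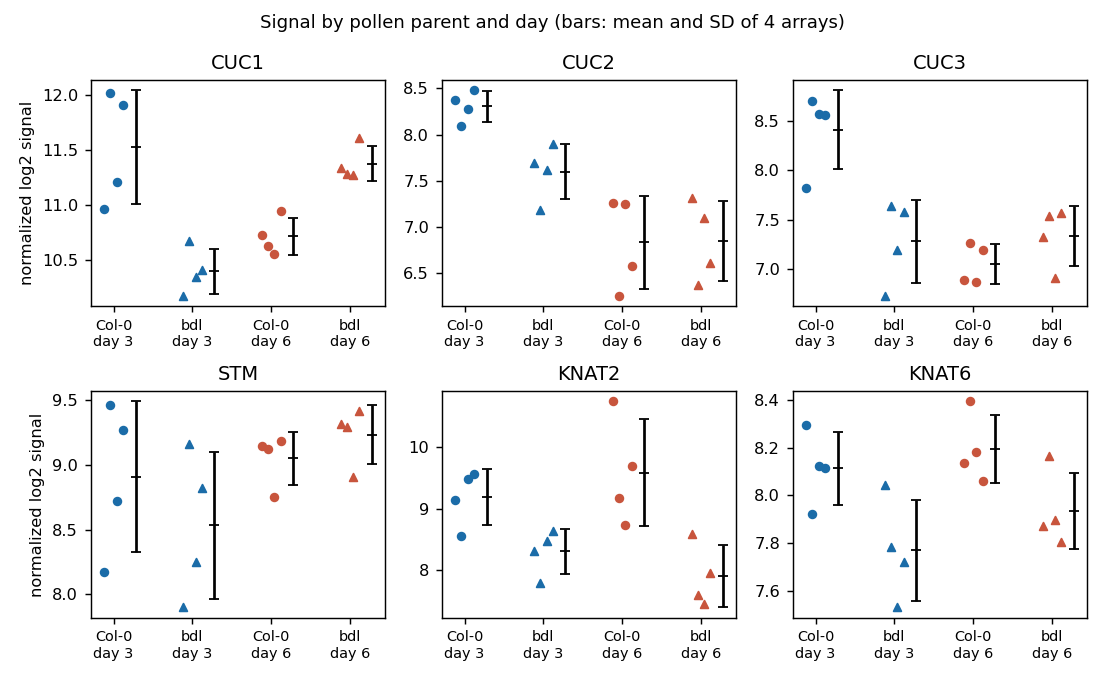
Normalized log2 level of each gene in the 4 conditions, for the 6 genes with values on both days, with the 4 arrays as points and the mean ± SD beside them. CUC2 and CUC3 stood highest in Q0990 x Col-0 on day 3, and KNAT2 and KNAT6 stood lower in Q0990 x bdl than in Q0990 x Col-0 on each day.

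Genes known to work beside the boundary and meristem genes were read from 4 lists. Of 10 boundary genes, 6 were measured, with 1 called higher and 1 lower on day 3 (21.1% and 21.0% of all genes) and 1 higher and 0 lower on day 6 (16.2% and 19.4%). On day 3, PAN, a bZIP gene of the meristem, was 1.68-fold lower (log2 -0.75, adjusted p = 0.00121), and the LOB-domain gene JLO was 1.17-fold higher (log2 0.22, adjusted p = 0.0232), which was lost with each day fitted alone (adjusted p = 0.110) and without day 3 replicate 1 (log2 0.18) or replicate 4 (log2 0.16). On day 6, LSH4, a gene that CUC1 is known to activate, was 1.29-fold higher (log2 0.37, adjusted p = 0.00879), which was lost with no offset (log2 0.43, adjusted p = 0.339) and without day 6 replicate 1 (log2 0.30, adjusted p = 0.0505). On day 3, LSH4 exceeded the blank spots in 1 of 4 Q0990 x bdl and 0 of 4 Q0990 x Col-0 signals, and no fold is given. The log2 ratio of PAN differed between days by 0.67 (adjusted p = 0.0110).

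Of 18 BELL and class II KNOX genes, 15 were measured. On day 3, 6 were called higher and 2 lower, where 21.1% and 21.0% of all genes were, and the median log2 ratio was 0.14. On day 6, 8 were called higher and 1 lower, where 16.2% and 19.4% of all genes were, with a median of 0.28. ATH1, a BELL gene whose protein pairs with STM, was 1.76-fold higher on day 6 (log2 0.81, adjusted p = 0.000179). BLH3 was higher on both days (log2 0.79 and 0.72). With an offset of 200 the day 6 log2 ratios were 0.54 for ATH1 and 0.48 for BLH3, and both were called. Of the 4 Q0990 x Col-0 signals on day 6, 2 of ATH1 and 1 of BLH3 exceeded the blank spots, so these sizes rest on signals near background. Among class II KNOX genes, which are known to act against class I genes, KNAT7 rose on day 3 (log2 0.77, adjusted p = 0.00154) and KNAT4 on day 3 (log2 0.44, adjusted p = 0.00434) and day 6 (log2 0.67, adjusted p = 0.000795). From no offset to an offset of 200, KNAT4 ran from 0.74 to 0.24 on day 3 and from 0.86 to 0.42 on day 6, called each time. On day 6, 1 of its 4 Q0990 x Col-0 signals exceeded the blank spots. BLH6 ran from log2 -0.66 on day 3 to 0.28 on day 6, a difference of 0.95 (adjusted p = 4.90e-05), and its day 3 value was -0.43 with an offset of 200, also called. PNY, another BELL partner of class I proteins, was not called on either day (log2 -0.27 and -0.14).

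Of 9 genes that regulate KNOX genes or act with them, 6 were measured. On day 3, 0 were called higher and 3 lower (21.1% and 21.0% of all genes), and on day 6, 2 higher and 1 lower (16.2% and 19.4%). CLV3, the stem cell peptide gene, was 1.22-fold lower on day 3 (log2 -0.29, adjusted p = 0.0111). That call was lost with each day fitted alone (adjusted p = 0.0557) and without day 3 replicate 2 (log2 -0.24, adjusted p = 0.0541) or replicate 4 (log2 -0.23, adjusted p = 0.0539). On day 6 CLV3 was 1.44-fold lower (log2 -0.53, adjusted p = 0.000801), and log2 -0.19 (adjusted p = 0.0627) with no filter on dim reporters, when further reporters entered the average. With an offset of 200 the log2 ratios were -0.17 and -0.32, both called. AS1, which represses class I KNOX genes in leaves, was log2 -0.21 on day 3 (adjusted p = 0.0250), lost with each day fitted alone (adjusted p = 0.0869) and without day 3 replicate 1 (log2 -0.19), 3 (log2 -0.16) or 4 (log2 -0.22). On day 6 it was 1.35-fold higher (log2 0.43, adjusted p = 0.00120). WUS, the stem cell homeobox gene, was not called (log2 0.052 and -0.29).

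Of the CIN-type TCP genes, known to repress CUC genes, the list held 5 (TCP2, TCP3, TCP4, TCP10 and TCP24). All 5 were measured. On day 3 TCP10 was called higher (log2 0.49, adjusted p = 0.000285; log2 0.30 with an offset of 200, also called) and the other 4 were not called. On day 6 all 5 were called higher, with log2 1.00 for TCP4, 0.94 for TCP3, 0.66 for TCP2 and 0.45 for TCP10, where 16.2% of all genes were called higher. CUC1 and CUC3 were called higher on the same arrays, and KNAT1 and KNAT2 lower.

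**Figure D5:**
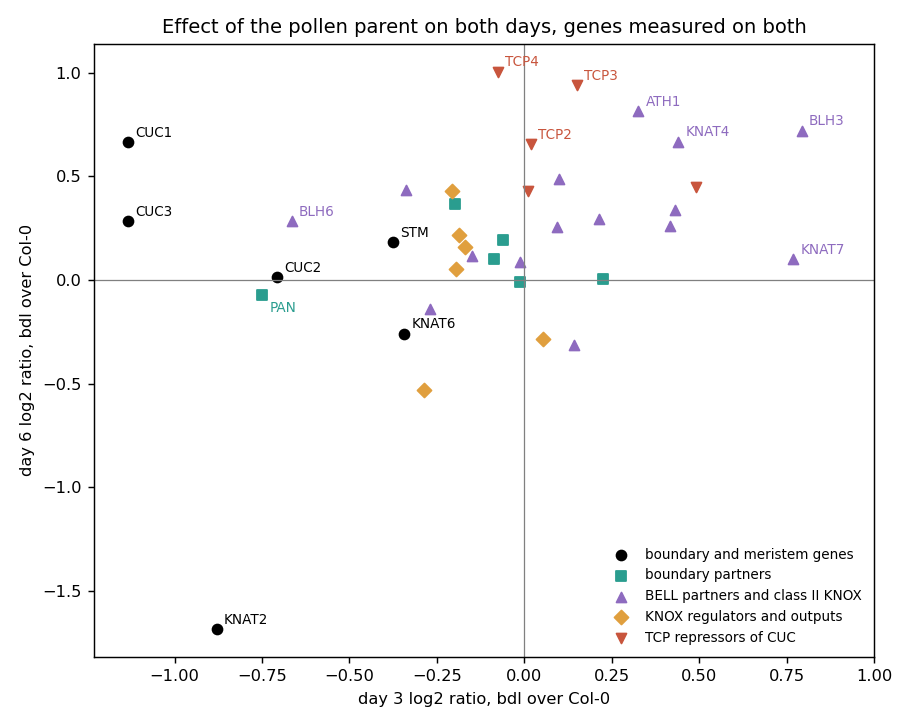
Day 6 effect against day 3 effect (log2, Q0990 x bdl to Q0990 x Col-0) for boundary and meristem genes and for the lists of genes known to work with them. CUC1 and CUC3 lay in the upper left, at -1.13 and 0.66 and at -1.13 and 0.28, and KNAT2 in the lower left.

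For CUC1, CUC2, CUC3, STM and KNAT2, whose effect differed between days, the genes whose log2 ratios had the highest Pearson r to theirs were sought among 4614 genes. The 8 arrays fall into the 2 days, so each Pearson r mainly describes the step between days, and no p is given. For CUC1 the nearest was KAN2 (r = 0.996), then AT3G45040 (0.995) and AGP1 (0.994). For CUC2 they were AT3G19100 (0.997), BZO2H3 (0.986) and NAC047 (0.984), and for CUC3 OFP7 (0.998), ARF18 (0.997) and TOP3A (0.996). For STM they were AT3G25670 (0.997), MAP65-2 (0.994) and CKL6 (0.991). For KNAT2 they were AT4G16450 (0.990), AT3G12190 (0.984) and GSTU8 (0.981). KAN2, a polarity gene, ran from log2 -0.76 on day 3 to 0.28 on day 6. A high r does not mean an equal size or sign of the log2 ratios. On day 3 they were 0.073 for AT4G16450, 0.81 for AT3G12190 and 0.31 for GSTU8, against -0.88 for KNAT2.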

How the data were processed

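The authors deposited 1 linear intensity per channel and spot for each of 8 arrays, per the file headers without a background column or flags; image software, background method and normalization are not given in the sources used here. An offset of 50 was added, log2 ratios (bdl cross to Col-0 cross) were formed from the deposited intensities, and loess normalization followed within arrays (span 0.3, 4 iterations, no weight on controls). Reporters were kept that exceeded the 95th percentile of blank spots (1743 an array) in at least 4 of 16 signals. Reporters of a gene were averaged.

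limma 3.58.1 (R 4.3.3) fitted a day 3, a day 6 and a dye effect, and a gene needed at least 3 arrays on a day for the effect of that day. The difference is day 6 minus day 3. Changes between days within a cross came from limma's separate-channel model (Aquantile, intraspot correlation 0.946, statmod 1.5.0). Levels are means over 4 arrays of Aquantile-normalized channel signals, without that model or its dye effect. P-values rest on 4 arrays a day, whose number limits the precision, and on the spread between those replicates. For genes with values on both days, the days share an estimate of that spread, which limma moderates across genes. KNAT1 and BOP2 had values on day 6 only, so the spread behind their p comes from the 4 day 6 arrays, with the same moderation. The SD printed beside a p is that of its own day alone, so the p does not measure it. Deviations of same-numbered arrays of the 2 days correlated at -0.259 to -0.146. With dyes assigned by the deviations, these arrays have opposite dyes, so the correlations cannot show whether the numbers pair samples. The labels do not say that they do, and the main fit has no replicate block.

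The 10 genes and the lists of other genes were chosen with earlier results of these data known. All 10 are named, and from each list those called, at most the 4 with the largest change per comparison, given where they bear on the text, with values of the same genes in another comparison beside them; WUS and PNY were named after their values were seen. For likeness, the 3 genes of highest r were taken among genes on all 8 arrays with an SD of at least 0.3. Symbols come from RefSeq's TAIR10.1 gene table, which held 99.4% of the kept genes; no genome build is named, so no coordinates are given. The gene fit was tested on simulated data. Offsets, filter, dye, reporter choice, replicate block and left-out arrays were the alternatives. The dye assignment by deviations and each KNAT6 reporter alone were chosen after seeing the data.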

Additional observations from a re-analysis of the deposited data

Results flagged for a closer look

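The effect of the cross differed between day 3 and day 6, by the test of the difference itself, for 5 of the 6 boundary and meristem genes measured on both days, where 41.4% of 18834 genes differed. The differences in log2 ratio were 1.80 for CUC1, 1.42 for CUC3, 0.72 for CUC2, 0.56 for STM and -0.80 for KNAT2, the last not called with an offset of 200 (-0.60, adjusted p = 0.0537). For CUC2 and CUC3, 2 of 4 Q0990 x bdl and 1 of 4 Q0990 x Col-0 day 6 signals exceeded the blank spots, and the size depends on the offset (0.98 to 0.43 and 1.89 to 0.84 from no offset to an offset of 200, called each time). Among the genes listed beside them, the differences were 0.67 for PAN, 0.56 for LSH4, 0.95 for BLH6, 0.77 for BLH11, -0.67 for KNAT7, 0.49 for ATH1, 0.64 for AS1, 0.40 for AS2 and 0.25 for CLV1. TCP genes gave 1.08 for TCP4, 0.79 for TCP3, 0.64 for TCP2 and 0.41 for TCP24. The LSH4 difference was not called with no offset (1.18, adjusted p = 0.0730), and 1 of its 8 day 3 signals exceeded the blank spots. For BLH11, 1 of 4 Q0990 x bdl and 2 of 4 Q0990 x Col-0 day 3 signals did, and its difference ran from 1.19 with no offset to 0.44 with an offset of 200, called each time. The CLV1 difference kept its call in 11 of 17 alternatives and that of TCP24 in 10 of 17.

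One array stood apart from the other 3 of its day for 6 of 58 groups of 4 arrays examined, and chance flags about 1 in 20 groups. None (0) of the 6 was a boundary or meristem gene of the 10. PAN had a log2 ratio of -0.39 on day 3 replicate 1, where the others ran from -0.92 to -0.84. LOF1 had 0.44 on day 6 replicate 1 (others 0.083 to 0.13). KNAT7 had 1.36 on day 3 replicate 2 (others 0.49 to 0.62). BLH6 had -0.78 on day 3 replicate 3 (others -0.63 to -0.62) and 0.39 on day 6 replicate 1 (others 0.24 to 0.25). AS2 had 0.034 on day 6 replicate 3 (others 0.27 to 0.28).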

How the results depend on the processing

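With only genes above the blank spots in all 16 signals, 5168 genes were called on day 3, and of the boundary and meristem genes 2 were called on day 3, 2 on day 6 and 2 in the difference, since fewer genes were tested (CUC1, STM and, through its brightest reporter, KNAT6, which was not called). With each day fitted alone, 5243 genes were called on day 3. With the replicate block, 6 boundary and meristem genes were called on each day, where 6703 of all genes on day 3 and 5284 on day 6 were. Between days, 3 instead of 0 were called in Q0990 x bdl (CUC1, adjusted p = 0.0263, CUC2, 0.0145, and STM, 0.0201). In Q0990 x Col-0, 3 instead of 2 were called (CUC1 added, adjusted p = 0.0493). Calls between days over all 18834 genes rose as well, from 5984 to 7829 in Q0990 x bdl and from 5009 to 7039 in Q0990 x Col-0. STM lost its day 6 call (adjusted p = 0.0617) and AS1 its day 3 call (adjusted p = 0.0653). Leaving out 1 array gave 4507 to 7063 genes called on day 6, among them 5 to 7 boundary and meristem genes. Between days in Q0990 x bdl it gave 4527 to 5878 genes called, among them 0 to 2 boundary and meristem genes.

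Signs turned only for changes that had not been called, with 1 array left out. CUC2 on day 6 ran from -0.033 to 0.081 (log2). CUC3 in Q0990 x bdl between days ran from -0.16 to 0.17, and in Q0990 x Col-0 STM ran from -0.12 to 0.30, KNAT2 from -0.0055 to 0.66 and KNAT6 from -0.016 to 0.14. Calls of CUC1, CUC2, CUC3, STM and KNAT2 on day 3 kept direction and call in each alternative that gave a value. Signal over background limits CUC2 and CUC3 on day 6.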
